A study of Mus musculus with 9 samples.

Results

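The genes described here are 6 regulators of DNA methylation: the methyltransferase genes Dnmt1 and Dnmt3a, Uhrf1 (which recruits Dnmt1), the dioxygenase genes Tet2 and Tet3, and the reader gene Mbd2. They were taken by symbol from the 15824 genes of the deposited count table, and all 6 were present, each on 1 row. RNA depleted of ribosomal RNA was sequenced from isolated cardiomyocytes of CD-1 mice of 3 ages, postnatal day 1 (P1), day 14 (P14) and day 56 (P56), with 3 libraries at each age. Hearts were pooled for each library, 12 of them at P1 and 6 to 7 at the later ages. The labels name no genotype or drug that sets the ages apart. They describe both whole-cell isolation and a sort of nuclei carrying Pcm1, without saying which applied to a library, and the growth protocol mentions collection 3 days after surgery without tying it to a library. The libraries of an age are called biological triplicates by the submitters.

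DNA methylation in mammals sits mostly on cytosines followed by guanine (CpG). UHRF1 binds the half-methylated CpGs left behind by replication and brings DNMT1 to copy the mark onto the new strand, so both serve dividing cells above all. DNMT3A sets new methylation and works in cells that have stopped dividing. TET enzymes oxidise methylcytosine, the first step of its removal, and MBD2 reads methylated CpG and recruits the NuRD corepressor complex. Around birth mouse cardiomyocytes leave the cell cycle, and their methylation is remodelled during postnatal maturation.

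Library totals ran from 36619799 to 58538025 counts. All 10 cardiomyocyte markers examined were present, with summed levels of 51538 to 92698 CPM (the usual counts relative to library size, with sizes scaled by TMM). Of 38 markers of fibroblasts, endothelial cells, leukocytes and mural cells (smooth muscle and pericytes), 36 were measured, and none of these was at 0 counts in any library. Their mean log2 CPM, called the marker score here, ranged over 1.69 to 2.28 in the P1 libraries, 2.82 to 4.01 in those of P14, and 1.11 to 2.18 in those of P56, so P14 stood above both other ages. Summed fibroblast markers were 155 to 312 CPM at P1. They were 216 to 791 CPM at P14, and 49.5 to 97.2 at P56. Endothelial markers stood at 72.3 to 103.0, 219.7 to 561 and 37.7 to 94.3 CPM, leukocyte markers at 3.32 to 5.04, 7.45 to 21.2 and 7.22 to 14.4, and mural markers at 168 to 196, 197 to 296 and 51.9 to 85.2. In such bulk samples fewer cells of a type and less RNA per cell cannot be told apart. The part of other cell types in the results below was not tested beyond adding the marker score to the model. No P14 score lay within the range of another age, so score and age are partly confounded at steps involving P14. Results of that model for those steps lean on a linear trend carried across the gap.

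The 2 maintenance genes were the ones with the largest changes among the 6, and both fell at each step. Dnmt1, the maintenance methyltransferase gene (ENSMUSG00000004099, GRCm38 chr9:20907209-20959888, minus strand), stood at 37.1, 37.9 and 38.1 CPM in the P1 libraries. It stood at 17.6, 14.3 and 14.1 CPM at P14 and at 8.04, 8.27 and 7.44 CPM at P56. No 2 ages overlapped, and the P56 mean was 21.0% of the P1 mean. The log2 change was −1.30 ± 0.09 (SE) from P1 to P14 (adjusted p = 3.81e-06, n = 3 per age). All tests of this kind are edgeR quasi-likelihood tests, with p-values adjusted over every gene tested (Benjamini-Hochberg). From P14 to P56 it was −0.96 ± 0.10 (adjusted p = 4.23e-05), and over the whole span −2.25 ± 0.10 (adjusted p = 5.78e-08).

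Uhrf1 (ENSMUSG00000001228, chr17:56303321-56323486, plus strand), which overlaps no other annotated gene, fell further than Dnmt1 and from a lower level. Its libraries held 638, 580 and 618 counts at P1, 100, 85 and 71 at P14, and 31, 58 and 43 at P56. In CPM these were 10.1, 10.99 and 11.1 at P1, 2.56, 2.30 and 1.96 at P14, and 0.702, 1.33 and 0.958 at P56. Again no 2 ages overlapped, and the P56 mean was 9.29% of that at P1. The lowest library had 31 counts, with an exact 95% Poisson interval of 21.1 to 44.0 that covers counting error only. The log2 change was −2.24 ± 0.19 from P1 to P14 (adjusted p = 9.42e-06), −1.19 ± 0.21 from P14 to P56 (adjusted p = 0.00102) and −3.43 ± 0.20 from P1 to P56 (adjusted p = 3.89e-07). In a model holding the marker score the step after P14 was of like size, −1.11, but no longer past the threshold (adjusted p = 0.0569). The second step was smaller than the first for Uhrf1, by 1.05 ± 0.35 on the log2 scale (adjusted p = 0.0292). That difference was not past the threshold without P1 replicate 2 (1.03, adjusted p = 0.0583), P1 replicate 3 (1.02, 0.0595), P14 replicate 2 (1.07, 0.0793) or P14 replicate 3 (0.86, 0.0913), and it was 1.18 (0.229) in a model holding the marker score. For Dnmt1 the difference between the steps was 0.34 ± 0.17 (adjusted p = 0.113), and it passed the threshold without P14 replicate 1 (0.57, 0.00607), the library with the highest marker score, with that score in the model (0.88, 0.0456) and with GC offsets (0.73, 0.0124).

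Since Dnmt1 and Uhrf1 fell together, a promoter window of each is shown, namely that with a match to the motif below. A window is the 300 bases from 250 before to 50 after an annotated RefSeq start (GRCm38.p6). Capitals mark matches to the E2F-type motif, the site through which E2F factors are known to drive genes of DNA replication, searched on both strands as TTTCCCGC, TTTGGCGC, TTTCGCGC and TTTGCCGC.
Dnmt1, chr9:20952574-20952873, minus strand: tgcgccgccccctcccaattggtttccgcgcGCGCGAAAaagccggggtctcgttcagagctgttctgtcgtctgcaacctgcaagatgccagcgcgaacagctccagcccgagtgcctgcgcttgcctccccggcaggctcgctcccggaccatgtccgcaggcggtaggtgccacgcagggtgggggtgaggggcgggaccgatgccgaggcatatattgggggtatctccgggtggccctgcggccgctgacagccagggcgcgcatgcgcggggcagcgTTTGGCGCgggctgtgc
Uhrf1, chr17:56304063-56304362, plus strand: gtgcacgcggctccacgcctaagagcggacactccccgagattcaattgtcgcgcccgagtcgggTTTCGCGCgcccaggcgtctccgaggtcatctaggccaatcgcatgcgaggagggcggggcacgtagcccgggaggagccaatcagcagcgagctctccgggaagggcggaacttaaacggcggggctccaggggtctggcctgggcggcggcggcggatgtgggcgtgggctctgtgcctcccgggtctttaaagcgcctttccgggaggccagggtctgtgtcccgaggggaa
Dnmt3a, chr12:3806910-3807209, plus strand: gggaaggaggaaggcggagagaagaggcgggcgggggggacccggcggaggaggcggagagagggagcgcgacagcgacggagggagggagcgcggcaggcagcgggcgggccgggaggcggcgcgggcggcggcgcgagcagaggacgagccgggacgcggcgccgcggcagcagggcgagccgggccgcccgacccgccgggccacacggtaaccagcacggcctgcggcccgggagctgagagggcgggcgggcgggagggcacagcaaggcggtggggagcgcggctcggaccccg
The Dnmt1 window held 2 matches, GCGCGAAA (the reverse complement of TTTCGCGC) from base −219 and TTTGGCGC from base 33, counted from the start site as 0. The Uhrf1 window held TTTCGCGC from base −185. Windows at the other annotated starts of these genes held no match (56303337 for Uhrf1, 20952979 and 20959888 for Dnmt1). The Dnmt3a window is given because Dnmt3a moved the other way from P1 to P14, and it held no match. After P14 Dnmt3a fell too. The Tet3 window, not shown, also held no match, although Tet3 fell from P14 to P56. Of the 5 genes searched, 10 windows in all, these 2 windows were the ones with a match, against 2.26% of all 32851 windows. Mbd2 was not searched. Among 19 DNA replication genes with a window, 9 had a match in any window, against 2.6% of all 27025 genes with a window. These shares were not matched for CpG content, with a median of 21 CpGs in windows of replication genes and 7 in all windows. The motifs were chosen after the changes were seen, and a role of E2F factors in the falls was not tested. A match describes letters and is not evidence of binding.

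The same windows differ in CpG content, the substrate of the enzymes themselves. The printed Dnmt1 and Uhrf1 windows held 33 CpGs each, the printed Dnmt3a window 47 and the Tet2 window 57, against a median of 7 over all windows. The Tet3 window held 22. Dnmt1 has further annotated starts upstream, at positions 20952979 and 20959888, whose windows held 12 and 2 CpGs. Uhrf1 has another annotated start at 56303337, whose window held 12. The counts are per gene, so the start used in these libraries is not known.

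Dnmt3a was highest at P14. This de novo methyltransferase gene (ENSMUSG00000020661, chr12:3806007-3914443, plus strand) stood at 218.5, 233 and 196 CPM at P1, at 299.9, 400.0 and 449 at P14, and at 241, 314 and 264 at P56. Every P14 library was above every P1 library, while P14 and P56 overlapped through P14 replicate 1 and P56 replicate 2. The rise from P1 to P14 was 0.83 ± 0.15 on the log2 scale (adjusted p = 0.00107), and 1.31 in a model holding the marker score. From P14 to P56 Dnmt3a fell by 0.49 ± 0.15 (adjusted p = 0.0174). This call was lost without P14 replicate 2 (−0.46, adjusted p = 0.0567), P14 replicate 3 (−0.36, 0.0544), P56 replicate 1 (−0.41, 0.0569) or P56 replicate 3 (−0.46, 0.0551) and with GC offsets (−0.34, 0.0589), and the change was −1.11 with the marker score in the model. Between P1 and P56 the change was 0.34 ± 0.15 with a 95% interval of 0.01 to 0.67, which was not past the threshold (adjusted p = 0.0685), although the 2 ages did not overlap. That comparison passed without P14 replicate 1 (0.34, 0.0138), P14 replicate 3 (0.34, 0.039) or P56 replicate 1 (0.42, 0.0418), with GC offsets (0.39, 0.0283), with a replicate block (0.33, 0.0427) and with only the 2 ages in the fit (0.34, 0.0146). The 2 steps of Dnmt3a differed by −1.32 ± 0.25 (adjusted p = 0.00194). Dnmt3a overlaps the antisense gene Dnmt3aos, which was not analysed here, and with the strand setting not given the reads of an antisense pair cannot be told apart.

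**Figure D1:**
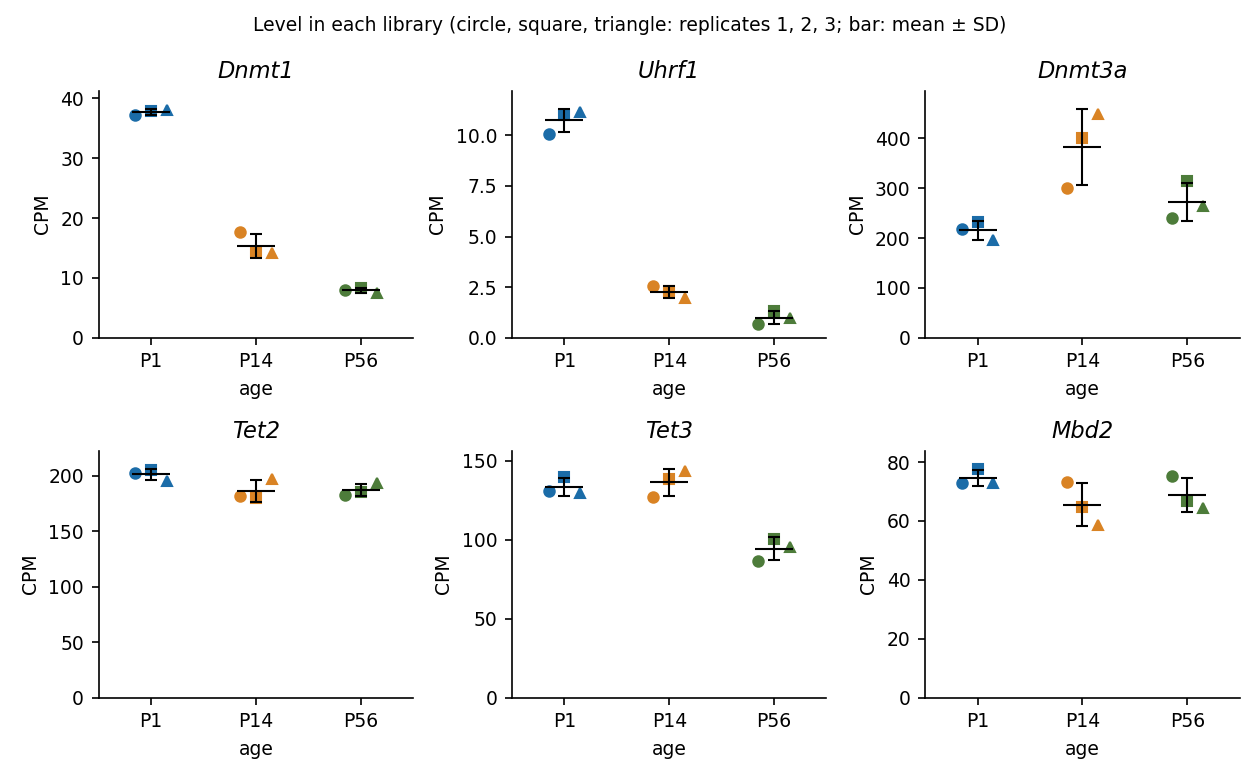
Level of each of the 6 genes in CPM (y axis, from 0) by age (x axis). Points are libraries and bars the mean ± SD of 3 libraries. Dnmt1 and Uhrf1 step down at each age, Dnmt3a peaks at P14 at 299.9 to 449 CPM, Tet3 is lower at P56 (86.7 to 101 CPM), and Tet2 and Mbd2 overlap between neighbouring ages.

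Of the 2 erasers, Tet3 had called changes and Tet2 had none in the model with age alone. Tet2 (ENSMUSG00000040943, chr3:133463679-133545139, minus strand) stood at 202, 205 and 196 CPM at P1, at 182, 179.7 and 197 at P14, and at 183, 185 and 193 at P56. The P1 and P14 libraries overlapped, as did P14 and P56, and P56 lay just under P1. The change from P1 to P14 was −0.11 ± 0.05, with a 95% interval of −0.23 to 0.01 (adjusted p = 0.115), and from P1 to P56 −0.10 ± 0.05 (interval −0.23 to 0.02, adjusted p = 0.123). These intervals leave no room for a change of the size seen for Dnmt1. The first of them passed the threshold without P14 replicate 3 (−0.15, adjusted p = 0.0473) and with upper quartile scaling (−0.17, 0.0218), and it was above 0 and not called with the marker score (0.02, 0.848) or GC offsets (0.01, 0.917). The change of Tet2 from P1 to P56 passed with upper quartile scaling (−0.22, 0.00594), which lowered the median of all genes to −0.14, and with the marker score (−0.14, 0.0303).

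Tet3 (ENSMUSG00000034832, chr6:83362373-83459084, minus strand) kept to a similar range at P1 (129 to 139.85 CPM) and P14 (127 to 144) and was lower at P56 (86.7, 101 and 95.7), with no overlap between P56 and either earlier age. From P14 to P56 it fell by 0.53 ± 0.07 on the log2 scale (adjusted p = 0.000218), to 69.2% of the P14 mean. The change from P1 to P14 was 0.03 ± 0.07 (95% interval −0.13 to 0.19, adjusted p = 0.725). A model holding the marker score called Tet3 up at that step (0.25, adjusted p = 0.0463), while GC offsets (−0.11, 0.148), upper quartile scaling (−0.03, 0.746) and leaving out P14 replicate 3 (−0.01, 0.941) gave values below 0 that were not called. From P1 to P56 the change was −0.50 ± 0.07 (adjusted p = 0.000174). The steps differed by −0.56 ± 0.12 (adjusted p = 0.0041), or by −0.20 with GC offsets (adjusted p = 0.143). Gm42567, antisense to Tet2, and B230319C09Rik, on the strand opposite Tet3, had 45 to 88 and 22 to 134 counts per library, against at least 6645 for Tet2 and 3830 for Tet3.

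Mbd2 (ENSMUSG00000024513, chromosome 18) showed no change past the threshold at any step in the model with age alone. Its libraries stood at 73.0, 77.7 and 72.8 CPM at P1, at 73.1, 64.7 and 58.6 at P14, and at 75.3, 66.7 and 64.3 at P56, and all 3 ages overlapped. The change was −0.19 ± 0.09 from P1 to P14 (95% interval −0.38 to 0.01, adjusted p = 0.0997), 0.07 ± 0.09 from P14 to P56 (interval −0.13 to 0.27, adjusted p = 0.522) and −0.12 ± 0.09 from P1 to P56 (interval −0.31 to 0.08, adjusted p = 0.278). The first of these passed the threshold when P14 replicate 1 was left out (−0.27, adjusted p = 0.0136), when the model held the marker score (−0.47, 0.00507), when it held GC offsets (−0.41, 0.0101) and with upper quartile scaling (−0.25, 0.0332), and the second with that score (0.42, 0.0314) and with GC offsets (0.42, 0.0099). From P1 to P56 the change of Mbd2 passed with upper quartile scaling (−0.23, 0.0426) and was 0.01 with GC offsets (0.947).

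**Figure D2:**
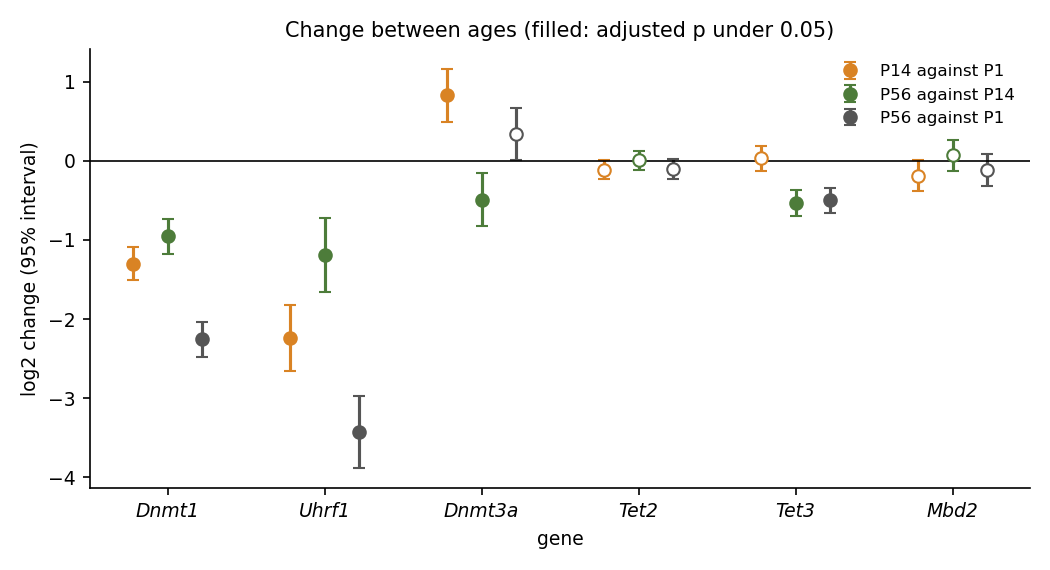
Log2 change of each gene (x axis) in the 3 comparisons, with 95% intervals (y axis), and filled points where adjusted p is under 0.05. Dnmt1 and Uhrf1 lie below 0 in every comparison, Dnmt3a is above 0 at the first step and below at the second, and Tet2 and Mbd2 lie within 0.2 of 0.

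In counts, 1 of the 6 genes rose and 2 fell from P1 to P14, where 55.9% of all 15817 genes tested were called, 28.4% up and 27.5% down. From P14 to P56, 0 rose and 4 fell by edgeR's test (background 56%, of which 27.5% up and 28.5% down), with 0 rises also by DESeq2 and limma, and no member was higher at an unadjusted p under 0.05. From P1 to P56, 0 rose and 3 fell (background 62.6%, of which 30.9% up and 31.7% down), with Dnmt3a at an unadjusted p of 0.0448 and called by DESeq2 (0.35, adjusted p = 0.0372). With calls this frequent among all genes, a share of 3 or 4 in 6 says little by itself, and the sizes carry the description. The median change of the 6 was −0.15, −0.51 and −0.31, against 0.00, −0.02 and −0.03 over all genes tested. The steps differed upward for 1 of the 6 genes and downward for 2, against 24.1% and 26% of all genes (50% in either direction). An F test over the ages called Dnmt1, Uhrf1, Dnmt3a and Tet3 (adjusted p of 0.00169 or below) and not Tet2 (0.147) or Mbd2 (0.177), and 78% of all genes passed it. Groups that did not overlap were found for 3 of 6 genes between P1 and P14 (63.9% of all genes), 3 between P14 and P56 (59.5%) and 5 between P1 and P56 (72.2%).

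The P14 libraries differed among themselves both in the marker score and in the levels of these genes. P14 replicate 1 had the highest marker score (4.01, against 3.51 and 2.82 in replicates 2 and 3). It was the highest P14 library for Dnmt1 (17.6 CPM), Uhrf1 (2.56) and Mbd2 (73.1) and the lowest for Dnmt3a (299.9) and Tet3 (127). Within P56 the library with the highest score (2.18, replicate 1) was highest for Mbd2 (75.3 CPM) and lowest for Dnmt3a (241) and Tet3 (86.7). For Uhrf1 it ran the other way, as that library was the lowest (0.702 CPM), and for Dnmt1 that library (8.04) lay between the other two. Within P1 the library with the highest score (2.28, replicate 3) was lowest for Dnmt3a (196), Tet3 (129) and Mbd2 (72.8) and highest for Dnmt1 (38.1) and Uhrf1 (11.1). Without P14 replicate 1 the log2 change from P1 to P14 was −1.41 for Dnmt1, −2.33 for Uhrf1 and 0.98 for Dnmt3a, each as large as or larger than with it.

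**Figure D3:**
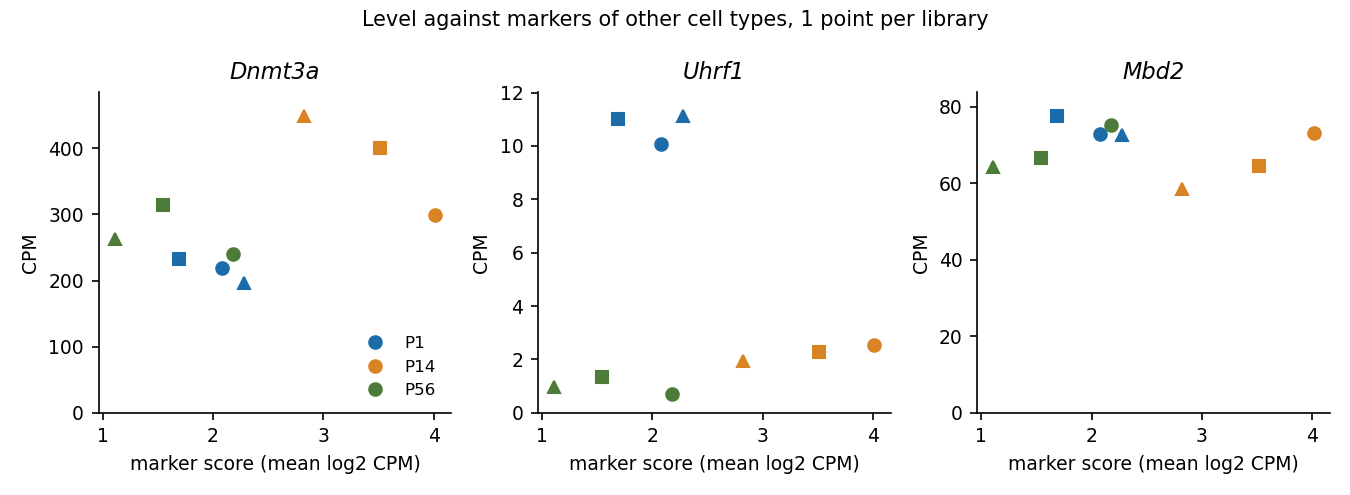
CPM of Dnmt3a, Uhrf1 and Mbd2 (y axes) against the marker score of other cell types (x axis, mean log2 CPM), 1 point per library, coloured by age and shaped by replicate. At P14 the library with the highest score (4.01) has the lowest Dnmt3a and the highest Uhrf1 and Mbd2, while Uhrf1 at P1 lies above all other libraries at scores like those of P56.

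Ratios of counts within a library do not depend on how libraries are scaled, and they are given as a description with no test. There were 5.88, 6.15 and 5.14 Dnmt3a counts per Dnmt1 count at P1, 17.0, 28.0 and 31.8 at P14, and 29.9, 38.0 and 35.4 at P56. The balance between the 2 methyltransferase genes thus moved toward Dnmt3a mostly by P14, with P14 and P56 overlapping. The Uhrf1 to Dnmt1 ratio ran from 0.272 to 0.292 in P1 libraries, from 0.139 to 0.161 in P14 libraries and from 0.0873 to 0.161 in P56 libraries, so Uhrf1 lost more than Dnmt1 by P14 and the later ages overlapped. The Tet3 to Tet2 ratio lay between 0.647 and 0.681 at P1, between 0.699 and 0.77 at P14 and between 0.475 and 0.544 at P56, with no overlap between ages.

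**Figure D4:**
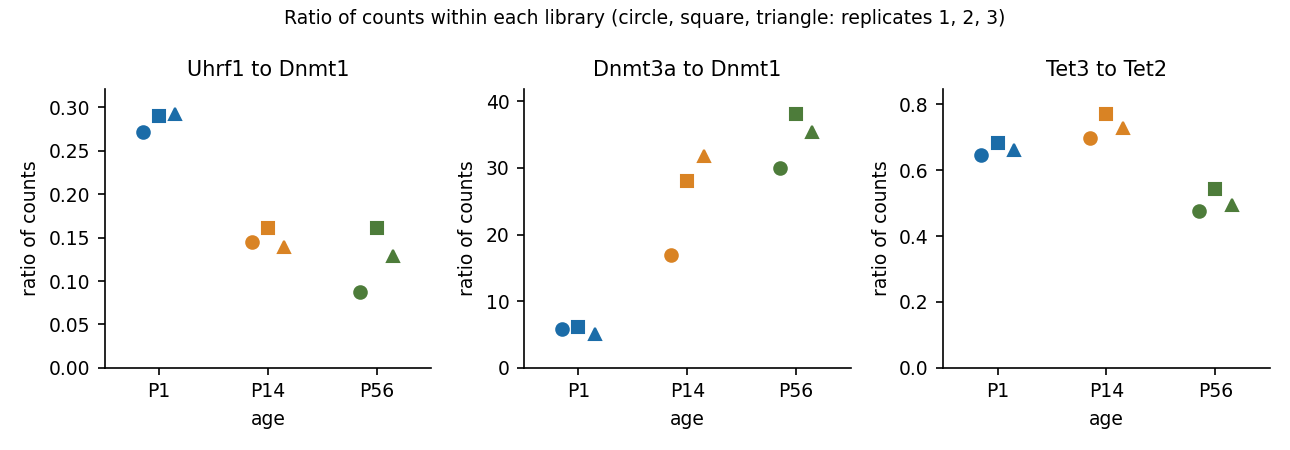
Ratio of counts (y axes, from 0) of Uhrf1 to Dnmt1, Dnmt3a to Dnmt1 and Tet3 to Tet2 in each library by age (x axis). Dnmt3a per Dnmt1 goes from 5.14 to 6.15 at P1 to 29.9 to 38.0 at P56, and Tet3 per Tet2 is lowest at P56 (0.475 to 0.544).

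Levels of different genes were compared per length, once per kilobase of annotated exons and once per kilobase of the gene, since the sources do not say whether introns were counted. Per exonic kilobase at P1 the order was Mbd2 (23.2 CPM per kb), Dnmt3a (12.97), Tet2 (11.9), Tet3 (7.99), Dnmt1 (5.11) and Uhrf1 (2.52), where Dnmt3a (11.8 to 14.0) and Tet2 (11.6 to 12.2) overlapped. At P14 Dnmt3a (23.0, range 18.02 to 27.0) and Mbd2 (20.4, range 18.2 to 22.8) overlapped at the top. At P56 Mbd2 stood at 21.4, Dnmt3a at 16.4, Tet2 at 11.1, Tet3 at 5.65, Dnmt1 at 1.07 and Uhrf1 at 0.234, and no neighbours overlapped. Per kilobase of gene the top changed, with Tet2 first at P1 (2.47, against 1.99 for Dnmt3a) and Dnmt3a and Tet2 overlapping at P56 (2.22 to 2.90 and 2.24 to 2.37). Dnmt1 and Uhrf1 were the lowest at every age on both scales, Uhrf1 below Dnmt1.

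Partners of the maintenance enzymes fell with them. From P1 to P14, 9 of the 11 genes measured fell and 0 rose by edgeR's test (median −2.20). From P14 to P56, 5 fell (median −0.58), and 10 fell over the whole span (median −2.75). Each comparison had 0 rises, and no gene rose at an unadjusted p under 0.05. Of all genes tested, 27.5%, 28.5% and 31.7% fell in these comparisons, and 28.4%, 27.5% and 30.9% rose. The largest falls from P1 to P14 were those of Cdca7l (−3.49 ± 0.22), Chaf1b, a subunit of the histone chaperone CAF-1 (−2.92 ± 0.32), 2810417H13Rik, the PCNA-associated factor Pclaf (−2.86 ± 0.24), and Cdca7 (−2.53 ± 0.29), a partner of the remodeller Hells. Pcna, the sliding clamp of replication, fell by 1.37 ± 0.18 at that step. Usp7, a deubiquitinase that binds Dnmt1 and Uhrf1, stood at 122.4, 123.2 and 121.8 CPM at the 3 ages and passed the threshold in no comparison. DNA replication genes gave the same picture at the first step, with 22 of 22 down (median −2.27), and 13 of 22 down and 2 up at the second (median −0.85). Mki67 and Top2a, both made in cycling cells, fell by 2.85 ± 0.31 and 2.73 ± 0.35 and then by 3.35 ± 0.39 and 3.26 ± 0.45. With the marker score in the model the second step of the maintenance partners had 2 of 11 down and that of the replication genes 6 of 22. Calls were fewer among all 15817 genes too, with 2515 down at that step in that model and 4504 without the score. Markers of other cell types moved up at the first step (27 of 36, median 1.92) and down at the second (25 of 36, median −2.17).

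Dnmt3b, the other de novo enzyme, rose like Dnmt3a from P1 to P14 (0.58 ± 0.13, adjusted p = 0.00448) from a low level of 4.3 CPM, a call lost (0.58, adjusted p = 0.056) when the model held the marker score. Between P1 and P56 Dnmt3b rose by 0.45 ± 0.13, a call lost without P1 replicate 1 (0.41, adjusted p = 0.0546) or P56 replicate 3 (0.37, 0.0603). Of 10 measured genes, 1 rose and 3 fell from P1 to P14 (10% and 30%, near the 28.4% and 27.5% of all genes for falls only). From P1 to P56, 2 rose and 6 fell (20% and 60%, against 30.9% and 31.7%, median −0.32). Whsc1 (Nsd2), a histone H3 lysine methyltransferase gene, fell by 1.32 ± 0.06 over the whole span. Trim28 and Zfp57, which together protect methylation at imprinted regions, also fell over that span. Trim28 fell by 0.90 ± 0.09. Zfp57 fell by 3.64 ± 0.57, with 44 to 72 counts per library at P1 and 1 to 7 at P56.

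Of 17 genes of demethylation measured, 4 rose and 7 fell from P1 to P14 (23.5% and 41.2%, against 28.4% and 27.5% of all genes). At the second step 2 rose and 5 fell (11.8% and 29.4%, against 27.5% and 28.5%), and with GC offsets 2 rose and 2 fell. From P1 to P56, 1 rose and 10 fell (5.88% and 58.8%, against 30.9% and 31.7%, median −0.38), and with GC offsets 3 rose and 9 fell. The share of all genes called with GC offsets is not given, so these counts have no background in that model. Tet1, the third TET gene, fell at both steps, by 0.87 ± 0.06 (adjusted p = 3.15e-06) and 0.24 ± 0.06 (adjusted p = 0.00865). Neil2, a DNA glycosylase gene, fell by 1.34 ± 0.12 at the first step, and Gadd45g, of a family linked to DNA repair, rose by 1.44 ± 0.21 and then fell by 2.02 ± 0.22. Apex1, the main abasic site endonuclease, fell by 1.41 ± 0.29 over the whole span, from a mean of 2.07 CPM to one of 0.775.

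Of 12 genes measured in the list of CpG binding and MBD family genes, 4 rose and 4 fell from P1 to P14 (33.3% each, near the 28.4% and 27.5% of all genes). The list includes Cxxc1, Kdm2a, Kdm2b, Mbd5 and Mbd6, so it is not made up of readers of methylated CpG alone. At the second step 3 rose and 5 fell (25% and 41.7%, against 27.5% and 28.5%). Over the whole span 4 rose and 6 fell (33.3% and 50%, against 30.9% and 31.7%, median −0.13). With GC offsets the count over the span was 5 up and 3 down, with no share of all genes in that model given. Zbtb38, a zinc finger reader, rose by 0.59 ± 0.07 from P1 to P14 and by 1.13 ± 0.07 over the whole span. Mbd3, the NuRD subunit related to Mbd2, fell by 0.97 ± 0.11 from P1 to P56.

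The NuRD complex, through which Mbd2 acts, had more of its subunits called down than all genes did after P14. Of 13 measured subunits 1 rose and 4 fell from P1 to P14 (7.69% and 30.8%, against 28.4% and 27.5% of all genes). From P14 to P56, 0 rose and 8 fell (0% and 61.5%, against 27.5% and 28.5% of all genes, median −0.37). Over the span 0 rose and 10 fell (0% and 76.9%, against 30.9% and 31.7%, median −0.52). By edgeR, 1 subunit, Rbbp7, was higher at an unadjusted p under 0.05 from P14 to P56, and 0 were over the span. Chd3, a remodelling ATPase, fell by 2.58 ± 0.15 from P14 to P56, and Mta2 fell by 0.62 ± 0.08. With GC offsets 7 fell and 1 rose at that step, with no share of all genes in that model given.

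Genes of methyl donor and cofactor supply went the other way after P14 in the model with age alone. Of 17 measured, 10 rose and 1 fell from P14 to P56 (58.8% and 5.88%, against 27.5% and 28.5% of all genes, median 0.29). From P1 to P56, 8 rose and 1 fell (47.1% and 5.88%, against 30.9% and 31.7%, median 0.25). With the marker score in the model, 2 of 17 rose at the second step, as did 2630 of all 15817 genes. The share of rises was thus not above that of all genes in that model. Idh1, which makes 2-oxoglutarate, the TET cosubstrate, rose by 1.01 ± 0.07 from P1 to P56. Mtr, methionine synthase, and D2hgdh rose by 0.92 ± 0.12 and 0.88 ± 0.11 from P1 to P56. In all, 15 of 80 partner genes rose and 43 fell from P1 to P56 (18.75% and 53.8%, against 30.9% and 31.7% of all genes tested). The lists differed, with 10 of 11 maintenance partners and 10 of 13 NuRD subunits down. In the methyl donor list 8 rose and 1 fell.

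**Figure D5:**
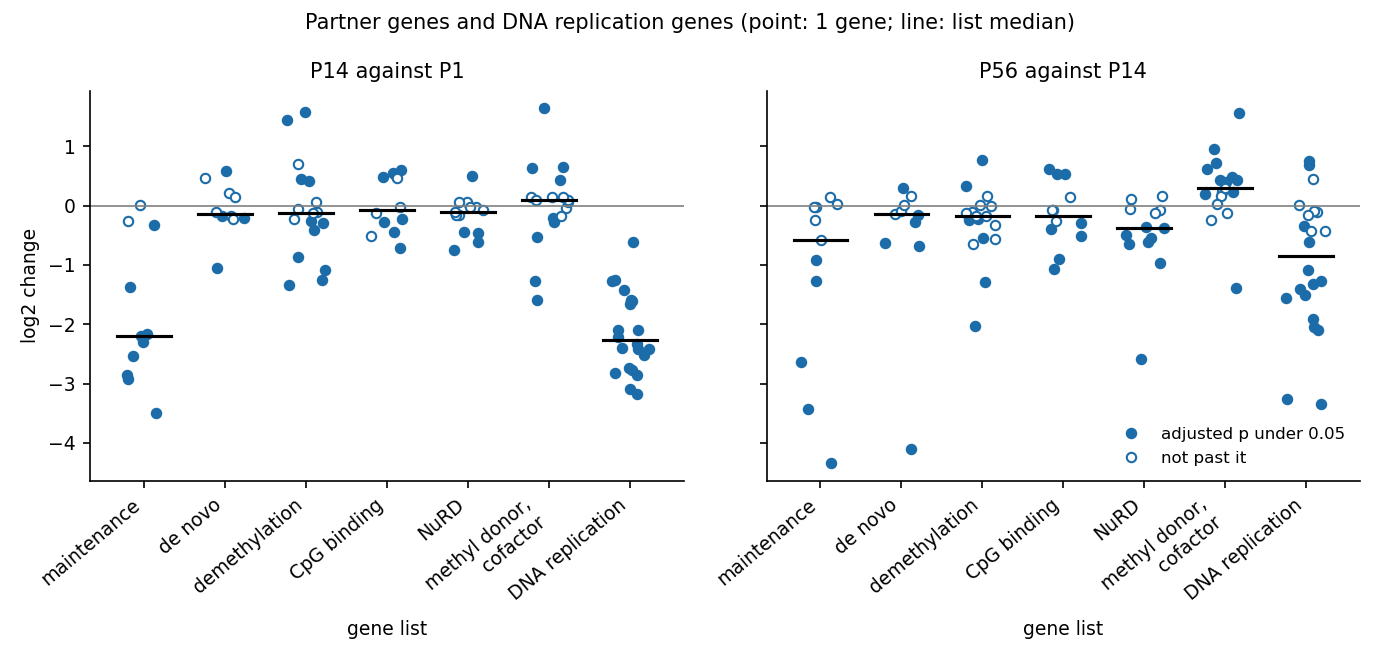
Log2 change (y axis) of single genes in the 6 partner lists and the DNA replication list (x axis), from P1 to P14 on the left and from P14 to P56 on the right. Filled points have adjusted p under 0.05, and lines are list medians, which lie at −2.20 for maintenance and −2.27 for replication genes at the first step and at 0.29 for the methyl donor list at the second.

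For each of the 6 genes the profiles over the 9 libraries were compared with those of 8798 genes of at least 5 CPM on average (clone-style names left out), by the root mean square (RMS) difference of log2 CPM centred on each gene's mean. Tet2 had the closest match, Ogt (RMS difference 0.0165), the O-GlcNAc transferase gene, which was also in the demethylation list and stood at 381, 352 and 356 CPM. The next genes for Tet2, Fam193a and Chd8, were at 0.0316 and 0.0326. Dnmt3a was most like Adcy6 (0.0582), an adenylyl cyclase gene, then Nfatc2 (0.0613) and Tfeb (0.0678). Tet3 was nearest to Zfp653 (0.0507), N4bp2 (0.0509) and Wiz (0.0513), and Mbd2 to Mob4 (0.0454), Smad4 (0.0518) and G3bp2 (0.0572). Dnmt1 was nearest to Fasn (0.0968), the fatty acid synthase gene, Bcl2l11 (0.0971), an apoptosis gene, and Incenp (0.105), of the mitotic passenger complex. Uhrf1 had no match as close. The nearest were Kif11 (0.236), a mitotic kinesin gene, Upp1 (0.241) and Zdhhc2 (0.254). Likeness in 9 libraries of 3 ages reflects mainly the 3 age means. The RMS difference is not scaled for counting noise or size of change, and Uhrf1 had the fewest counts of the 6 genes. It therefore does not rank how distinctive their profiles are.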

How the data were processed

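The authors deposited counts, whole numbers for each Ensembl gene in each library, in a single table. The tools named in the submitters' processing notes are featureCounts 1.4.2, STAR 2.4.0g1 and bcl2fastq 2.17.1.14, and the build is GRCm38. Exon or whole-gene counting and the strand setting are not given in the sources used here. The lowest mean count of a gene was 10, so weakly counted genes are not in the table.

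The test was that of edgeR 4.0.16 (R 4.3.3). The function filterByExpr removed 7 genes and left 15817, sizes were scaled by TMM, and 1 quasi-likelihood fit with age as the only term held all 9 libraries (common dispersion 0.0192). P-values were adjusted over all genes tested by Benjamini-Hochberg, at a threshold of 0.05. The SE was derived from the F statistic, and 95% intervals from it. CPM use the TMM-scaled sizes, and 0.01 was added before log2 for profiles. Library pairs of 1 age differed beyond counting error (chi-square per degree of freedom 5.48 to 101), so none was merged. P-values measure the spread between these pools.

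The 6 genes and the partner lists were chosen with earlier results of these data known. Named partners are up to 4 per list and comparison with the largest change past the threshold, beside Dnmt3b, Tet1, Pcna, Mki67 and Top2a. Some genes that the rule names are not reported here. Usp7, and the genes nearest in profile, are given by level. The motifs were chosen after the changes were seen. Coordinates and lengths come from GENCODE M21 (GRCm38), which held 15763 of the 15824 identifiers, and promoter windows from RefSeq. Alternatives were DESeq2 1.42.0, limma 3.58.1 (voom), RLE and upper quartile scaling, other filters, a replicate block, a marker score, GC offsets, 2 ages only, and each library left out.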

Additional observations from a re-analysis of the deposited data

Results flagged for a closer look

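In 3 of the 6 genes the change from P14 to P56 differed from the change from P1 to P14 in a test of that difference (edgeR's quasi-likelihood test, Benjamini-Hochberg adjustment over all genes), as it did in 50% of all genes tested. For Dnmt3a the later change minus the earlier was −1.317 on the log2 scale, a rise followed by a fall. For Tet3 it was −0.5622, with a called fall after P14 and no call before it. With the marker score in the model Tet3 was called up before P14 (0.25, adjusted p = 0.0463). For Uhrf1 it was 1.051, a second fall smaller than the first. Both steps share the P14 libraries, so a P14 value that is off moves this difference in both steps. Groups of 3 libraries are too small for the check on single outlying libraries.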

How the results depend on the processing

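Over 19 alternatives, Dnmt1 and Uhrf1 from P1 to P14 and from P1 to P56, Dnmt3a from P1 to P14, Dnmt1 and Tet3 from P14 to P56 and Tet3 from P1 to P56 kept direction and call. The causes of the changes below were not tested, and the adjusted p-values of those that pass stand beside the results above. From P1 to P14, upper quartile scaling gave −0.1717 for Tet2, −0.02898 for Tet3 and −0.2485 for Mbd2, the marker score 0.0227, 0.2501 and −0.4673, and GC offsets 0.008696, −0.111 and −0.4138. From P14 to P56, Tet2 was −0.04496 with upper quartile scaling, −0.006625 with a filter of 1 CPM, −0.1649 with the marker score, −0.112 with GC offsets and −0.001469 with only the 2 ages. Mbd2 was 0.4241 with the marker score and 0.4229 with GC offsets, Dnmt3a −0.3426 with GC offsets and Uhrf1 −1.113 with the marker score. From P1 to P56, Dnmt3a was 0.3493 with DESeq2, 0.3939 with GC offsets and 0.3405 with only the 2 ages. Tet2 was −0.2166 with upper quartile scaling and −0.1422 with the marker score, and Mbd2 −0.2269 with upper quartile scaling and 0.009088 with GC offsets. Upper quartile scaling moved the median of all genes to −0.14 in that comparison. For the difference between the steps, the marker score and GC offsets gave 0.8771 and 0.7287 for Dnmt1, −0.1876 and −0.1207 for Tet2, and 0.8914 and 0.8368 for Mbd2 (past the threshold for Dnmt1 and Mbd2). The marker score gave 1.183 for Uhrf1, and GC offsets gave −0.2042 for Tet3.

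Leaving out 1 library at a time gave, from P1 to P14, −0.1534 to −0.08472 for Tet2, −0.007997 to 0.08054 for Tet3 and −0.2726 to −0.1123 for Mbd2. From P14 to P56 it gave −0.6378 to −0.3584 for Dnmt3a, −0.01963 to 0.04901 for Tet2 and −0.003018 to 0.1573 for Mbd2, and from P1 to P56 0.2251 to 0.4243 for Dnmt3a. For the difference between the steps it gave 0.2292 to 0.5656 for Dnmt1, 0.7888 to 1.241 for Uhrf1 and 0.1093 to 0.4299 for Mbd2. With the marker score, 2630 of all genes rose and 2515 fell from P14 to P56 (4356 and 4504 without it), 7 partner genes rose (16 without it), and 2498 and 2660 genes differed between the steps upward and downward (3809 and 4107 without it). Dnmt3b from P14 to P56 was 0.06088 with GC offsets and Pcna 0.1934 with the marker score.

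Whether replicate numbers pair the libraries was not settled. Of 9 correlations between same-numbered libraries 2 were over 0.1 (range −0.198 to 0.444), and a library correlated best with its own number in 7 of 18 choices. Both joined P14 with P56, in replicate 1 (0.444) and replicate 3 (0.315). With 3 libraries per age this check cannot decide whether same-numbered libraries were prepared together. With the replicate block, all genes called up from P1 to P14 numbered 4524 and all genes called down 4300 (4493 and 4350 without it), and among the 6 genes the only call to change was Dnmt3a from P1 to P56 (0.328, adjusted p = 0.0427). Depth limits Uhrf1 most, at 31 to 58 counts per P56 library.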
